A study of Mus musculus with 6 samples.

Results

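Intergenic cytosines at least 20 kb and less than 100 kb from the nearest annotated transcription start were chosen from lists of cytosines whose methylation differed between Tet1 KO and WT mice. Cytosines lying in an annotated CpG island or repeat were left out, so the set holds unlabelled distal sequence. It numbers 788 of the 6756 listed cytosines and has 474 nearest genes, of 3344 in all. The rule used feature, distance and label alone, and no methylation value. The assay, enhanced reduced representation bisulfite sequencing, reads mainly CpG-rich fragments. It was run on LSK cells sorted from bone marrow, the lineage-negative cells with surface Sca-1 and Kit among which haematopoietic stem cells and early progenitors are found. The groups were 3 samples of mice without Tet1 (Tet1 KO) and 3 samples of WT mice, all 6 months old and of the strain labelled CD57BL/6. The labels do not say how the Tet1 allele was made or whether each sample came from its own mouse.

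The authors' deposited tables hold 1 methylation difference per cytosine, in percentage points, over all 6 samples. They begin at a difference of 25 percentage points. Differences are Tet1 KO minus WT, as far as the lists' names and signs show. Levels per sample, coverage and p-values were not used here. The depth behind each difference is therefore unknown, and no difference could be set against the spread between replicates. Methylation cannot be used to check the labelled cell type against its markers. Every comparison below is a description of which cytosines were listed, with exact Clopper-Pearson 95% intervals that cover counting error only. Neighbouring cytosines share fragments and are not independent.

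TET1 is a dioxygenase that oxidises 5-methylcytosine to 5-hydroxymethylcytosine and further forms, a step towards removal of the mark. Bisulfite sequencing reads 5-methylcytosine and 5-hydroxymethylcytosine alike. Sequence far from transcription starts holds many enhancers, which are short elements that act over a distance, and the nearest gene need not be the gene that such an element acts on. Gene names below mean the gene with the nearest start.

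The listed cytosines carry mm9 positions, and sequence of that build was not used here, so the distal cytosines are given by position. The genes Osmr and C130026L21Rik had listed promoter cytosines as well as distal ones, and their promoters are shown because the listed promoter cytosines can be placed on them by distance from the start. The promoters are RefSeq windows of the build GRCm38.p6, from 250 bases before the start to 50 bases after it, read on the strand of the gene. Capitals mark the CpGs that held a listed cytosine. Osmr lies at chr15:6874264-6874563 on the minus strand and C130026L21Rik at chr5:111581311-111581610 on the plus strand.
Osmr: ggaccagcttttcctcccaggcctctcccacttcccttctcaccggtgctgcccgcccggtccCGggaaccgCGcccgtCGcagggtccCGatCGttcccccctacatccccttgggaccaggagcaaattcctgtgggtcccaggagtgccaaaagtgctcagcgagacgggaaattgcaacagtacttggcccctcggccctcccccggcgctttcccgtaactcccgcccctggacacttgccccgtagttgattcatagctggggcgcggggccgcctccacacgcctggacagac
C130026L21Rik: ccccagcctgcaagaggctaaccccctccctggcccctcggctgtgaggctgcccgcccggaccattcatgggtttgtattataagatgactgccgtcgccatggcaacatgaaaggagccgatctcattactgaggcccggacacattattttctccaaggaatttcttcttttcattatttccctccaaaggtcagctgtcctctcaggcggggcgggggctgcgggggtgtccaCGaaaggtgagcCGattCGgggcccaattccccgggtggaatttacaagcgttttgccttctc

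The Osmr window held 22 CpGs, 5 of them listed, and the C130026L21Rik window held 15 CpGs, 3 of them listed. At least 22 CpGs were found in 23.3% of the 27025 RefSeq promoter windows of the same length, and at least 15 in 35.2%. Placing by distance put 91 of the 124 listed promoter cytosines that fell inside a RefSeq window on a CpG (73.4%), and all of those of Osmr and C130026L21Rik.

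Among the nearest genes were 7 microRNA genes, which encode short RNAs that pair with messenger RNAs through a seed. Of those with at least 2 distal cytosines, 3 are shown as mature RNA from RefSeq GRCm38.p6, with the seed (bases 2 to 8) in capitals.
mmu-miR-148a-3p: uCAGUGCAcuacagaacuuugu
mmu-miR-129-5p: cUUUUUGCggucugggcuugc
mmu-miR-670-3p: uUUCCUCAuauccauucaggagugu

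No seed was shared among these 3 RNAs. Mir148a had 3 hypermethylated cytosines in the authors' deposited table, with differences of 28.1, 41.0 and 61.0 percentage points. They lay at chromosome 6, 51143228 to 51143455 (mm9), 76454 to 76681 bp downstream of its start. The pair at Mir129-1 differed by 27.5 and 29.9 percentage points, and the pair at Mir670 by 31.6 and 35 percentage points. Mir5127 had 5 cytosines, between 40.9 and 54.0 percentage points. Mir1196, Mir1971 and Mir3109 had 1 cytosine each. All 15 cytosines nearest to a microRNA gene were hypermethylated in Tet1 KO cells, near the 93.4% of all distal cytosines that were.

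Distal intergenic cytosines were mostly more methylated in Tet1 KO LSK cells: 736 were hypermethylated and 52 hypomethylated in the authors' deposited tables. The hypermethylated share was 93.4% (91.4 to 95.03%), beside 92.8% of all listed cytosines. The share among unlabelled intergenic cytosines closer than 20 kb was 94.99% (93.2 to 96.4%), and it was 91.2% (88.1 to 93.7%) at 100 kb or more. The 3 intervals overlap. With same-direction cytosines joined where under 1000 bp lay between them, the distal set gave 479 hypermethylated and 50 hypomethylated regions. Hypermethylated regions were 90.5% of these (87.7 to 92.9%), beside 89.4% of all listed regions. The direction of distal cytosines was thus near that of the lists as a whole.

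**Figure D1:**
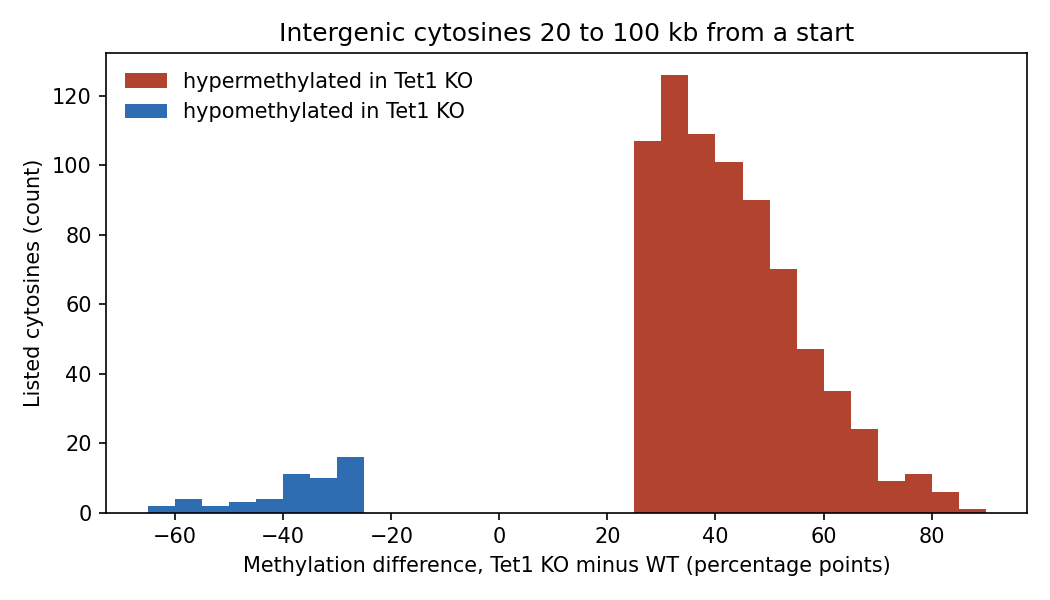
Histogram of the methylation difference (Tet1 KO minus WT, percentage points, bins of 5) for the 788 distal intergenic cytosines, with the count of cytosines on the vertical axis. The 736 hypermethylated cytosines run from 25.0 to 88.6 percentage points and the 52 hypomethylated ones from -60.9 to -25.4, and the gap in the middle is the threshold of the lists.

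The hypermethylated cytosines had a median difference of 40.9 percentage points (quartiles 33.0 and 51.0, range 25.0 to 88.6), beside 41.1 percentage points over all listed hypermethylated cytosines. The hypomethylated ones had a median of -34.95 percentage points (range -60.9 to -25.4), beside -34.1 percentage points over all listed. Differences of at least 60 percentage points were found at 86 hypermethylated cytosines (11.7%) and 2 hypomethylated ones. Among all listed hypermethylated cytosines that share was 12.3%. At least 80 percentage points were reached by 7 hypermethylated and 0 hypomethylated distal cytosines.

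Hypermethylated cytosines outnumbered hypomethylated ones on 20 of 20 chromosomes with distal cytosines. The lowest share was 83.3% on chromosome 8, with 30 hypermethylated and 6 hypomethylated cytosines (67.2 to 93.6%), beside 91.5% of all listed cytosines there. Chromosome X had 6 hypermethylated and 0 hypomethylated distal cytosines (54.1 to 100%), beside 64.6% hypermethylated among the 130 listed on it. Chromosome 5 held the most, 90 cytosines (11.4%), beside 9.59% of all listed cytosines. A further 2 hypermethylated cytosines lay on sequence not placed within a chromosome.

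Direction was also read along the distance. From 20 to 30 kb, 96.4% of 194 cytosines were hypermethylated (92.7 to 98.5%). From 60 to 70 kb the share was 85.1% of 67 (74.3 to 92.6%), the lowest of the 8 steps of 10 kb, and its interval ends just under that of the first step. From 90 to 100 kb it was 94.9% of 59 (85.9 to 98.9%). The shares did not run in one direction with distance inside the window. Closer than 10 kb the share was 96.4%, and at 200 kb or more it was 85.1%.

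**Figure D2:**
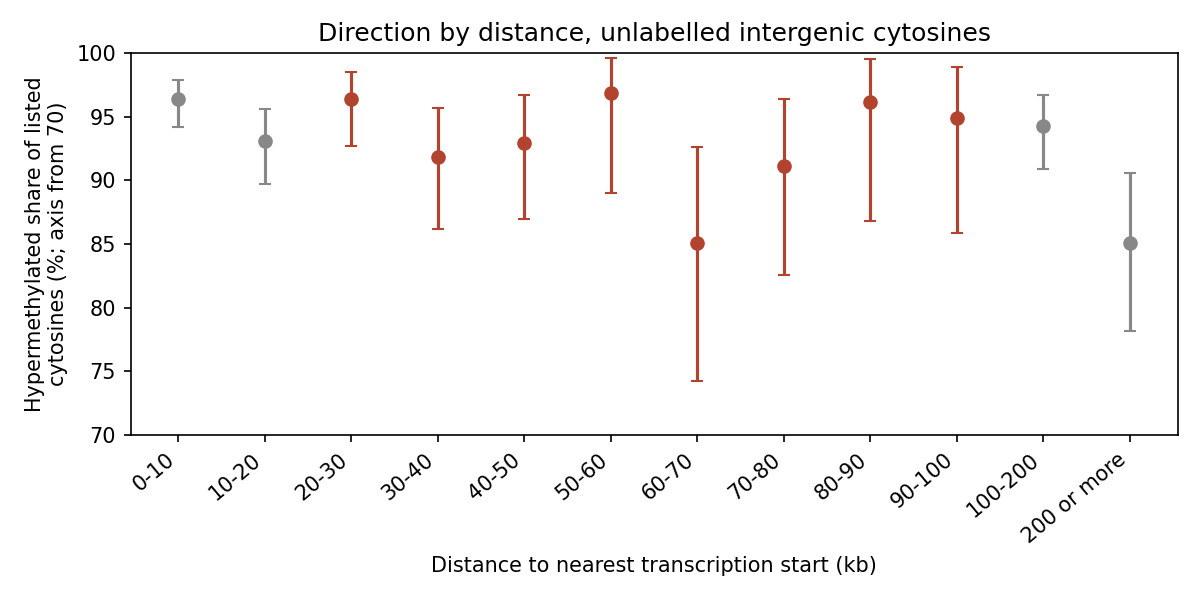
Percent of unlabelled intergenic cytosines that were hypermethylated in Tet1 KO cells, by distance to the nearest transcription start (kb), with exact 95% intervals as bars and the vertical axis starting at 70%. Red points are the distal set and grey points are closer or farther cytosines; the red points lie between 85.1 and 96.8%.

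The cytosines on either side of each limit of the window are given as a description. Just inside 20 kb, the cytosines at 20014 bp from Wwc1 and 20143 bp from 0610010O12Rik differed by 49.0 and 29.8 percentage points. Just outside, those at 19970 bp from Wwc1 and 19904 bp from 1810041L15Rik differed by 38.6 and 42.1 percentage points. Just inside 100 kb, those at 99104 bp from 9430014N10Rik and 99260 bp from Frem2 differed by 38.9 and 33.6 percentage points. A pair just outside, 100064 and 100092 bp from Tnfrsf11a, differed by 66.7 and 63.9 percentage points.

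Of the 479 hypermethylated regions, 138 held at least 2 cytosines (28.8%, 24.8 to 33.1%), near the 31.8% of all listed hypermethylated regions, and the others were single cytosines. These 138 regions held 395 cytosines, 53.7% of the hypermethylated ones. Of the 50 hypomethylated regions, 2 held at least 2 cytosines (4%, 0.488 to 13.7%), beside 3.33% of all listed hypomethylated regions. The 138 hypermethylated regions with several cytosines spanned a median of 36 bp. Of the 140 such regions of either direction, 91 (65%) lay on 1 strand within 50 bp, the length of a read. Cytosines in those 91 regions can share reads. The range of differences inside the 138 hypermethylated regions had a median of 9.21 percentage points and reached 61.4 percentage points. Both strands were listed in 33 of the 140 regions.

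At 7 CpGs the cytosines of both strands were listed, and each pair had the same direction, as did all 57 such pairs in all listed sequence. The gap between strands had a median of 5.66 percentage points (range 2.86 to 23.1), beside a median of 8.29 percentage points over the 57 such CpGs in all listed sequence. At Prss2 the plus strand differed by 75.04 and the minus strand by 69.6 percentage points. The widest gap was at Hmx1, with 62.4 percentage points on the plus strand and 39.2 on the minus strand.

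Most nearest genes had few distal cytosines. Of the 474 genes, 315 had 1 cytosine, 95 had 2, 30 had 3, 18 had 4 and 16 had at least 5. Hypermethylated cytosines alone were found at 424 genes, hypomethylated ones alone at 44, and both at 6. Of the 12 genes with the most hypermethylated cytosines, Uncx, Hmx1 and Irx3 are in the homeobox list counted below. T and Foxa2 are in the list of forkhead, Sox, T-box, Gata and bHLH factors. Among all 474 genes, 20 are in the homeobox list and 10 in the other.

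Uncx, a homeobox factor of vertebral and neural patterning, had the most, with 14 hypermethylated cytosines in 3 regions at chromosome 5, 140056301 to 140069785 (mm9), 36449 to 49933 bp downstream of its start. In the authors' deposited table their differences ran from 36.1 to 78.6 percentage points, with a mean of 51.9 ± 11.8 (SD over 14 sites, not over samples). The next protein-coding gene on that side in RefSeq order is Micall2. The group nearest to Uncx, of 9 cytosines, spans 140056301 to 140056990 and holds both the lowest and the highest value.

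Prss2, a pancreatic trypsinogen gene, had 10 hypermethylated cytosines in a single region at chromosome 6, 41492691 to 41493948, 20916 to 22173 bp downstream of its start. Their mean was 61.8 ± 12.2 percentage points (SD over sites, range 43.8 to 77.9), with 5 cytosines on each strand. The next gene labelled protein-coding on that side is Ephb6. Before it in RefSeq order come Trbd1 and Trbj1-1, gene segments of the T cell receptor beta chain. That chain is assembled in developing T cells. Which segment lies nearest to the cytosines was not analysed here.

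Hif1an encodes the asparaginyl hydroxylase that restrains hypoxia-inducible factors. It had 10 hypermethylated cytosines with a mean of 57.0 ± 11.0 percentage points (SD over sites), 87021 to 93237 bp downstream, 9 of them within chromosome 19, 44724365 to 44724443. The next protein-coding gene on that side is Pax2, a paired-box factor of kidney development, which was itself nearest to 1 cytosine, at 44808493, with 35.7 percentage points. Eif3h, a subunit of the translation initiation factor eIF3, had 8 cytosines at chromosome 15, 51606717 to 51607170, 89837 to 90290 bp downstream. Their differences ran from 27.9 to 77.8 percentage points. The next protein-coding gene on that side is Trps1, a GATA-type zinc finger repressor.

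Foxa2, a forkhead factor that opens chromatin in endoderm, had 5 hypermethylated cytosines within chromosome 2, 147849187 to 147849308, 23397 to 23518 bp downstream, all on the plus strand. They differed by 82.7, 76.5, 68.5, 38.7 and 56.0 percentage points in order of position, with a mean of 64.5 ± 17.5 (SD over sites). It shared its count with 3 other genes and was taken as the last of the 12 genes for its higher mean. T, the gene of the mesoderm factor brachyury, had 7 cytosines at chromosome 17, 8718391 to 8719357, 91103 to 92069 bp downstream, towards Pde10a. Their mean was 44.0 ± 8.04 percentage points.

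Hmx1, a homeobox factor of sensory neurons and the eye, had 8 hypermethylated cytosines with a mean of 44.2 ± 10.1 percentage points, 7 of them within chromosome 5, 35755489 to 35755880. Irx3, an Iroquois homeobox factor, had 6 cytosines between 94234607 and 94271680 on chromosome 8, downstream and towards Fto. Its values were lower, with a mean of 34.5 ± 11.2 percentage points, and 4 of the 6 lay between 26.2 and 28.7. Bach1, a haem-regulated repressor, had 6 cytosines with a mean of 57.8 ± 22.2 percentage points, on the side of Grik1. The 4 near 98 kb differed by 61.0 to 78.7 percentage points, and the other two by 25.1 and 35.9.

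Tspan17, a tetraspanin gene, had 7 cytosines with a mean of 40.1 ± 6.36 percentage points, on the side of Unc5a. Unc5a, a netrin receptor gene, was itself nearest to 1 cytosine with 66.8 percentage points. Tmem181b-ps had 8 cytosines within chromosome 17, 6491885 to 6491918, all on the plus strand, with a mean of 49.1 ± 5.81 percentage points. It is annotated as a pseudogene, and the cytosines lay 41743 to 41776 bp upstream of its start.

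**Figure D3:**
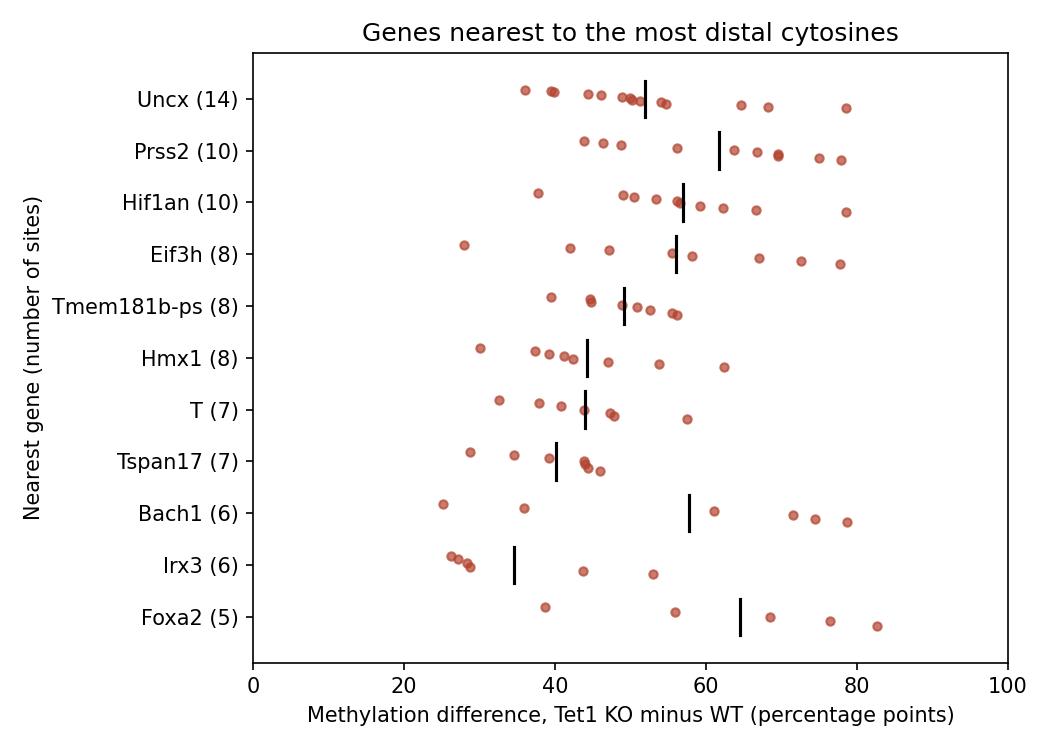
Methylation difference (Tet1 KO minus WT, percentage points) of each distal cytosine at 11 of the 12 genes with the most hypermethylated ones, with the number of cytosines in brackets. Points are cytosines, spread vertically for legibility, and the black bar is their mean; means run from 34.5 at Irx3 to 64.5 at Foxa2, which entered over 3 genes of equal count by its mean.

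The genes with many distal cytosines had them mostly downstream of the start, that is, on the side into which the gene is transcribed. Over the whole distal set, 405 cytosines lay downstream and 383 upstream. Among the 16 genes with at least 5 cytosines, 14 had all of them downstream, 1 had all of them upstream (Tmem181b-ps) and 1 had both (Sertad2). Downstream cytosines were 90.1% of the 121 at these genes, 49.7% of the 352 at genes with 2 to 4, and 38.4% of the 315 at genes with 1. Intergenic cytosines closer than 20 kb were mostly upstream at every count. Of those, 16.6% were downstream at genes with 1 and 17.2% at genes with 2 to 4. Cytosines inside a gene do not carry the label Intergenic, which limits downstream ones near a start. At the 16 genes with at least 5 cytosines closer than 20 kb, 11.3% of 106 were downstream. At 100 kb or more, 34.1% of 82 at 12 such genes were downstream. These are shares of few genes and clustered cytosines, and their difference was not tested.

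Both sides had the same direction. Of the downstream cytosines 94.1% were hypermethylated (91.3 to 96.2%), and of the upstream ones 92.7% (89.6 to 95.1%). Median differences of the hypermethylated cytosines were 42.6 percentage points downstream and 39.4 percentage points upstream. By strand of the cytosine, 92.9% of 396 on the plus strand and 93.9% of 392 on the minus strand were hypermethylated.

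**Figure D4:**
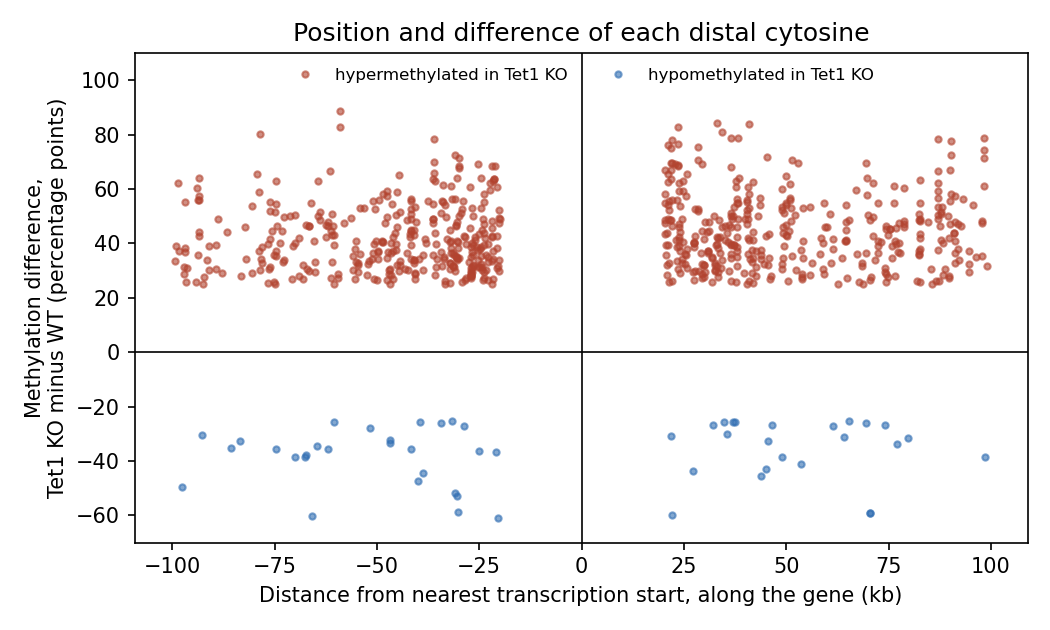
Methylation difference (Tet1 KO minus WT, percentage points) of each distal cytosine against its distance in kb from the nearest start along the gene, with negative distances upstream and positive ones downstream. Red points are the 736 hypermethylated cytosines and blue points the 52 hypomethylated ones, which occur on both sides.

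The highest single difference was 88.6 percentage points at Zcchc6, a terminal uridylyltransferase gene, at chromosome 13, 59983546. Another cytosine of this gene, at 59983581, differed by 82.8 percentage points. The other two cytosines of this gene differed by 32.0 and 27.1. AW549542 had a cytosine at 84.2 percentage points, 35 bp from another at 42.1. Zfp871, a zinc finger gene, had a single distal cytosine, at 81.0 percentage points.

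The lowest differences were at genes with a single distal cytosine, and at 4932435O22Rik. Rfx8, of the RFX family of DNA-binding factors, had a cytosine at chromosome 1, 39798202, with -60.9 percentage points. Enpp6, a choline-specific phosphodiesterase gene, had one at chromosome 8, 48006333, with -60.2. Cxcr7, which encodes a scavenging receptor of the chemokine CXCL12, had one at chromosome 1, 92122645, with -59.7. 1700029N11Rik had one with -58.8 percentage points.

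At least 2 hypomethylated cytosines were found at 2 genes. At 4932435O22Rik both differed by -59.0 percentage points and lay 12 bp apart on the same strand. At Gm1653 they differed by -33.4 and -32.4 percentage points. The median distance from a hypomethylated distal cytosine to the nearest listed hypermethylated one was 169242 bp, beside 175454 bp over all listed hypomethylated cytosines. Within 1000 bp lay 2 of the 52 (3.85%), beside 2.06% of all listed.

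Those 2 belong to Acbd3 and AI854517. Acbd3, a Golgi protein gene, had hypermethylated cytosines with 63.0 and 60.9 percentage points and a hypomethylated one with -25.6. AI854517 had hypermethylated cytosines with 38.5 and 42.4 percentage points and a hypomethylated one with -25.5. Sertad2, a transcriptional coregulator gene, had 4 hypermethylated cytosines from 30.5 to 55.1 percentage points and a hypomethylated one at -30.6. 4932435O22Rik had a hypermethylated cytosine with 49.1 percentage points, far from its hypomethylated pair. Clic6 and Tmem209 had 1 of each direction, with 32.1 and -25.4 percentage points at Clic6 and 36.0 and -26.8 at Tmem209. Outside 4932435O22Rik, the hypomethylated cytosines of these genes lay between -30.6 and -25.4 percentage points.

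Gene lists were then counted by nearest gene. Of 21900 protein-coding genes in RefSeq, 401 were nearest to a distal cytosine (1.83%) and 364 to a hypermethylated one (1.66%). A list's share depends also on how many of its cytosines were read, which was not used here.

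Homeobox genes, which set cell identity along the embryo, were nearest to a distal cytosine in 20 of 181 cases (11.0%, 6.88 to 16.5%), 19 with hypermethylated cytosines and 1 with a hypomethylated one. The list was also above the background closer to and farther from starts: 13.3% of it was nearest to an unlabelled intergenic cytosine under 20 kb away, beside 1.95% of all protein-coding genes, and 6.63% to one at 100 kb or more, beside 0.881%. Beside Uncx, Hmx1 and Irx3, Lhx5 had 3 cytosines, with 44.7, 33.3 and 52.7 percentage points. Hoxb1 had 1 cytosine, with 62.4 percentage points. Hoxd1 was the hypomethylated one, with -43.5 percentage points at 27184 bp.

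Forkhead, Sox, T-box, Gata and bHLH factors were nearest in 10 of 145 cases (6.90%, 3.36 to 12.3%), all hypermethylated. This list too was above the background outside the window. Its share was 10.3% under 20 kb, beside 1.95% of all protein-coding genes, and 4.14% at 100 kb or more, beside 0.881%. Any listed cytosine was nearest to 34.5% of the list, beside 13.7%. Beside T and Foxa2, Sox9, a factor of cartilage and testis, had 3 cytosines with 30.0, 60.2 and 53.3 percentage points. Olig2, an oligodendrocyte and motor neuron factor, had 2, with 35.4 and 30.3 percentage points.

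Wnt, Notch, TGF-beta, Hedgehog and FGF signalling genes were nearest in 13 of 165 cases (7.88%, 4.26 to 13.1%), 11 of them hypermethylated. Their share was also above the background under 20 kb (6.06%, beside 1.95%) and at 100 kb or more (4.24%, beside 0.881%). Any listed cytosine was nearest to 35.8% of the list, beside 13.7% of all protein-coding genes. The ligand gene Wnt7b had 3 cytosines with 61.5, 55.1 and 55.6 percentage points. Rfng, a fringe enzyme that modifies Notch, had 4 cytosines with 76.2, 65.5, 54.0 and 49.0 percentage points within 26 bp. Among intracellular members, Smad5, which carries BMP signals, had 31.5, 53.5 and 52.3 percentage points, and Gli2, a Hedgehog effector, had 55.3 and 47.2. The hypomethylated genes were the receptor Fzd10, with -38.5 percentage points, and Spry4, an inhibitor of receptor tyrosine kinase signalling, with -32.7.

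The intervals of all 3 blood lists included the background of 1.83%. Haematopoietic stem and progenitor genes were nearest in 1 of 56 cases (1.79%, 0.0452 to 9.55%), with a hypermethylated cytosine. Lymphoid genes were nearest in 4 of 82 cases (4.88%, 1.34 to 12.02%), all hypermethylated. Tcf3, which encodes the E2A factors of early B and T cells, had 2 cytosines with 47.9 and 64.0 percentage points at chromosome 10, 79926774 and 79926779. They formed a single region with a cytosine at 79927346 whose nearest gene was Onecut3, which shows how the nearest gene can change within a region. Blk, Ctla4 and Lef1 had 1 cytosine each, with 40.5, 40.2 and 38.9 percentage points. Myeloid, erythroid and megakaryocyte genes were nearest in 2 of 85 cases (2.35%), both hypermethylated. Zfpm1, a partner of GATA1, had 2 cytosines with 29.0 and 32.3 percentage points.

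Genes of leukaemia and lymphoma were nearest in 1 of 107 cases (0.935%), that of the kinase Pim1, with 52.9 percentage points. DNA methylation and chromatin enzymes were nearest in 2 of 142 cases (1.41%), both hypermethylated, among them the germline factor Prdm14 with 69.3 percentage points. Axon guidance and cadherin genes were nearest in 4 of 116 cases (3.45%), from Unc5a at 66.8 to Fat2 at 30.3 percentage points. Cytokines, chemokines and their receptors were nearest in 5 of 190 cases (2.63%). Of these, Osmr, Il9r, Ifnar2 and Il20rb were hypermethylated, with 65.3, 39.5, 37.4 and 31.8 percentage points, and Cxcr7 was hypomethylated. The intervals of these 4 lists also include 1.83%.

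**Figure D5:**
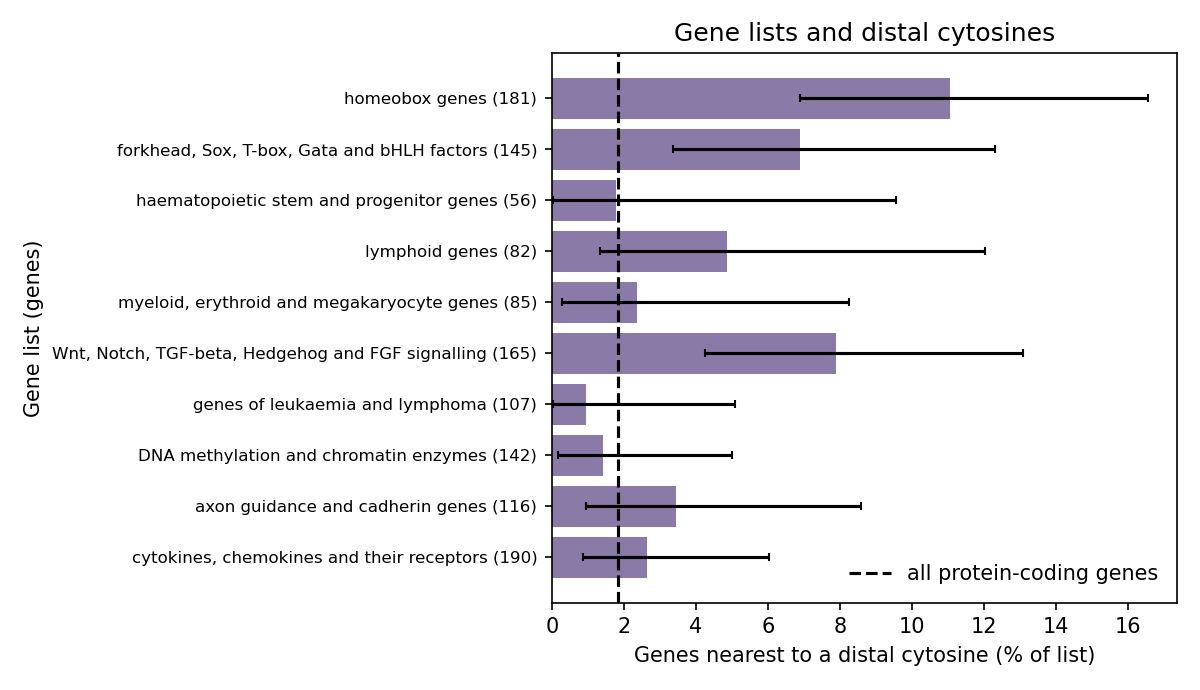
Share of each gene list that was nearest to a distal intergenic cytosine (%), with exact 95% intervals as bars, the number of genes in brackets and all protein-coding genes (1.83%) as a dashed line. Homeobox genes reach 11.0%, and the intervals of homeobox genes, of the forkhead to bHLH factors and of the signalling list lie above the line.

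Of the 474 genes nearest to a distal cytosine, 166 also had a listed cytosine outside the distal set (35.02%, 30.7 to 39.5%), and 308 had distal ones alone. The same share was 34.7% (30.5 to 39.2%) for genes nearest to unlabelled intergenic cytosines closer than 20 kb and 37.9% (31.8 to 44.4%) for those at 100 kb or more. Of all protein-coding genes, 13.7% were nearest to any listed cytosine, distal ones included. That share is over other genes and counts other cytosines, so it is no background for the 35.02%. Transcribed sequence or the promoter held a listed cytosine at 74 genes. Introns had hypermethylated cytosines at 39 genes (73 cytosines) and hypomethylated ones at 9 genes (10 cytosines). Of the distal cytosines, 31 lay within 1000 bp of a listed cytosine outside the set, and 30 of those neighbours carried an island or repeat label. The rule leaves out cytosines with such a label, so an intergenic neighbour this close is mostly outside the set for its label. All 31 had the direction of their neighbour, in lists where 92.8% of cytosines were hypermethylated.

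The promoter held 24 listed cytosines at 16 genes. All of these were hypermethylated, near the 92.8% of all listed cytosines that were. At Osmr, the gene of the oncostatin M receptor, the distal cytosine at chromosome 15, 6903624, 79311 bp upstream, differed by 65.3 percentage points. The 5 promoter cytosines in the sequence above lay 157 to 187 bp upstream of the start and differed by 28.2 to 33.4 percentage points. C130026L21Rik had distal cytosines with 44.6 percentage points at 75589 bp upstream and 32.5 at 44591 bp downstream. Its promoter cytosines differed by 48.2, 26.6 and 26.1 percentage points within 12 bp of the start.

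At Wnt7b the distal cytosines differed by 55.1 to 61.5 percentage points and the promoter one by 36.4. At Rasgrf1, a Ras exchange factor gene, the distal cytosine differed by 56.2 percentage points and the promoter one by 36.9. At other genes the order was the other way. Tmem14a had 28.4 percentage points at the distal cytosine and 61.7 in the promoter. Got1 had a distal mean of 29.3 percentage points and 61.3 in the promoter. By mean the promoter was also higher at Ndrg1, Cmc1, Emilin3 and Slco2a1, so neither order held throughout. Clic6 had distal cytosines in both directions beside a hypermethylated promoter cytosine with 38.4 percentage points. Rasgrf1, Tmem14a, Got1, Ndrg1, Cmc1, Emilin3, Slco2a1 and C130026L21Rik were chosen after their values were seen.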

How the data were processed

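Genomic DNA of LSK cells was bisulfite-converted, amplified and sequenced in single-end reads of 50 bp, per the labels' protocols. The submitters' processing notes name Bismark and mm9, with no version. Not given in the sources used here are the caller, the coverage and significance it asked for, and how replicates were combined. The authors' deposited tables give 1 methylation difference in percentage points and 1 distance in base pairs per cytosine, from 25 percentage points upwards in size. Columns with values of single samples numbered 0, so samples could not be tested against each other, and the depth per sample is unknown. An assay of CpG-rich fragments and a list that starts at 25 percentage points both limit what can appear.

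Cytosines labelled Intergenic with an absolute distance of 20000 to under 100000 bp were kept, leaving out those in an island or repeat. Those of one direction under 1000 bp apart were joined into regions, a step tested on simulated data. The sign of the distance times the strand of the cytosine gave the side of the gene, and this gave a single start, within 3 bp, for 868 of 870 transcripts with at least 2 cytosines. RefSeq GRCm38.p6 served for names, gene order and sequences, and 473 of 474 genes were found in it. Intervals are exact Clopper-Pearson at 95%. Python 3.11.15, pandas 2.3.3, numpy 2.4.6, scipy 1.17.1 and matplotlib 3.10.9 were used.

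The genes named are the 12 with the most hypermethylated distal cytosines (ties by mean difference), those with at least 2 hypomethylated ones or with both directions, those of the 6 highest and 6 lowest differences and of the 5 regions with the most cytosines, up to 4 per list, and the cytosines nearest to each limit; 4 of these genes are not reported here. Outside this rule, and chosen after their values were seen, are the microRNA genes, genes with promoter cytosines, Hoxb1, Hoxd1, Olig2, Fzd10 and Spry4 from the lists, and Pax2 and Onecut3, which neighbour named genes. The set of cytosines and the 10 gene lists were chosen with earlier results of these data known. Alternatives were a threshold of 40 percentage points, autosomes, the forward strand, each part of the window, island and repeat cytosines kept, and joining within 200 or 5000 bp.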

Additional observations from a re-analysis of the deposited data

How the results depend on the processing

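Each summary of the distal set was recomputed under the alternatives, 40 values in all, and 32 of them stayed within the spread taken for the main value. For shares that spread was the exact 95% interval. For medians it was the SD over cytosines to either side, which is far wider than the uncertainty of a median. Staying within it says little about the medians. Hypermethylated cytosines and regions stayed the majority under each alternative; the other summaries cannot change direction. At 40 percentage points or more, the hypermethylated share was 96.3% of cytosines and 94.6% of regions. By construction, the medians there were larger in size: 50.1 percentage points for hypermethylated cytosines, within that spread, and -51.8 for hypomethylated ones. The share of nearest genes with a listed cytosine elsewhere was 26.9% at that threshold. That last share was 25.0% on the forward strand alone, 41.5% from 50 to under 100 kb alone, and 28.6% with island and repeat cytosines kept. Each of these settings, the threshold included, also changes which cytosines count as listed elsewhere, so these shares differ partly by construction. The share of hypermethylated regions with at least 2 cytosines was 23.2% from 50 to under 100 kb alone. Where the construction does not give it, the cause was not tested. No paired analysis was possible because the tables hold a single difference per cytosine over all samples. For the same reason no replicate could be left out and no coverage minimum could be varied, and the depth that limits each difference is unknown.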
